A study of Mus musculus with 20 samples.

Results

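The genes described here mark the steps by which a neural progenitor becomes a neuron: the proneural factors Neurog1 and Neurog2, the early neuronal factor Nhlh1, the Notch effector Hes5, the RNA-binding protein gene Elavl3, and the cytoskeletal genes Tubb3, Dcx and Stmn2. They were chosen by name, and all 8 were found among the 54446 gene IDs of the deposited expression tables. They were followed in mouse embryonic stem cell aggregates profiled by bulk RNA-seq of polyadenylated RNA, in 15 libraries that fall into 5 groups of 3 labelled biological replicates. A further 5 single-cell samples of the study were not analysed here.

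The embryonic stem cell line was F1G4, carrying fluorescent reporters at T (T::H2B-mCherry) and Sox2 (Sox2::H2B-Venus), and every group shared this line and a pulse of 3 µM CHIR99021, a Wnt pathway agonist, begun at 48 h. The group 96h held aggregates taken at 96 h, 10 structures pooled per library. The other 4 groups were taken at 120 h, with 6 structures pooled per library: Gastruloid followed the Beccari protocol, with no Matrigel named, TLSMG was grown in Matrigel, a basement membrane extract, TLSMGC in Matrigel with CHIR99021 added, and TLSMGCL in Matrigel with both CHIR99021 and the BMP receptor inhibitor LDN. The dose and time of these additions are not given in the sources used here. Structures were picked for their shape, an asymmetric pole, so each library represents selected structures of 1 line. In such bulk libraries, fewer cells of a type and less RNA per cell cannot be told apart.

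In the neural tube, proneural basic helix-loop-helix factors such as the neurogenins commit progenitors to the neuronal fate and switch on Notch ligands, which activate Notch in neighbouring cells. Activated Notch, acting through its DNA-binding partner RBPJ, induces Hes5, which represses proneural genes and keeps those neighbours as progenitors. Committed cells then express Nhlh1, the RNA-binding protein Elavl3 (HuC), and proteins of the neuronal microtubule system, among them beta-III tubulin (Tubb3), doublecortin (Dcx) and SCG10 (Stmn2).

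Promoter sequence is shown for Hes5, because it stands beside the Notch ligands below. Its level, like that of Stmn2, also separated the groups without and with Matrigel in their labels. RefSeq promoter windows of the build GRCm38.p6 matched 7 of the 8 members, Stmn2 having no entry in the table used, and the 250 bases upstream of each start were searched on both strands. The Hes5 window lies on the plus strand at chr4:154960673-154960922, directly upstream of the gene, and is printed 5′ to 3′ with the RBPJ motif GTGGGAA, on either strand, in capitals:

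Hes5: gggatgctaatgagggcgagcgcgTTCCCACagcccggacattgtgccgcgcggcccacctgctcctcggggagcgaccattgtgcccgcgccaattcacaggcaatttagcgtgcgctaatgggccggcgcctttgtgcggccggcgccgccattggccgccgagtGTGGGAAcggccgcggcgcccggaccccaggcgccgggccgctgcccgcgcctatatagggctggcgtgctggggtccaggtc

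The motif occurred 2 times in this window, beginning 226 and 83 bases upstream of the start, in opposite orientations. At least 1 copy was found in 5.42% of the 32851 promoter windows in the table, and in none of the windows of the other matched members. The general E-box CANNTG, the class of site that proneural factors bind, was found in 66.2% of all windows. It occurred 1 time for Hes5, 2 times for Elavl3 and 1 time for Nhlh1. The Nhlh1 copy was CAGATG, the form preferred by neurogenins and a subset of CANNTG, which 14.4% of all windows held. The N-box CACNAG, a site class for Hes proteins, was found in 36.7% of all windows and 1 time in each of the 2 Dcx windows. These matches describe letters in the window and were not tested as binding sites.

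The members differed widely in level. The values are in TPM, a measure scaled for library size and gene length, so that levels may be compared between genes. Hes5, Tubb3 and Stmn2 reached at least 8.21, 10.3 and 0.740 TPM in every library, whereas Neurog1, Neurog2, Nhlh1, Elavl3 and Dcx averaged under 1 TPM across the 15 libraries. Only Hes5, Tubb3 and Stmn2, 3 of 8 members, passed the minimum mean of 1 TPM used for testing, as did 14290 of all gene IDs. They were tested with limma on log2(TPM + 1), with Benjamini-Hochberg adjustment over all genes tested and a threshold of 0.05. Differences below are on that scale, which understates the change of a low gene. The other 5 members are described by their values and reads, and by a second limma fit without the minimum, over 29971 genes.

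**Figure D1:**
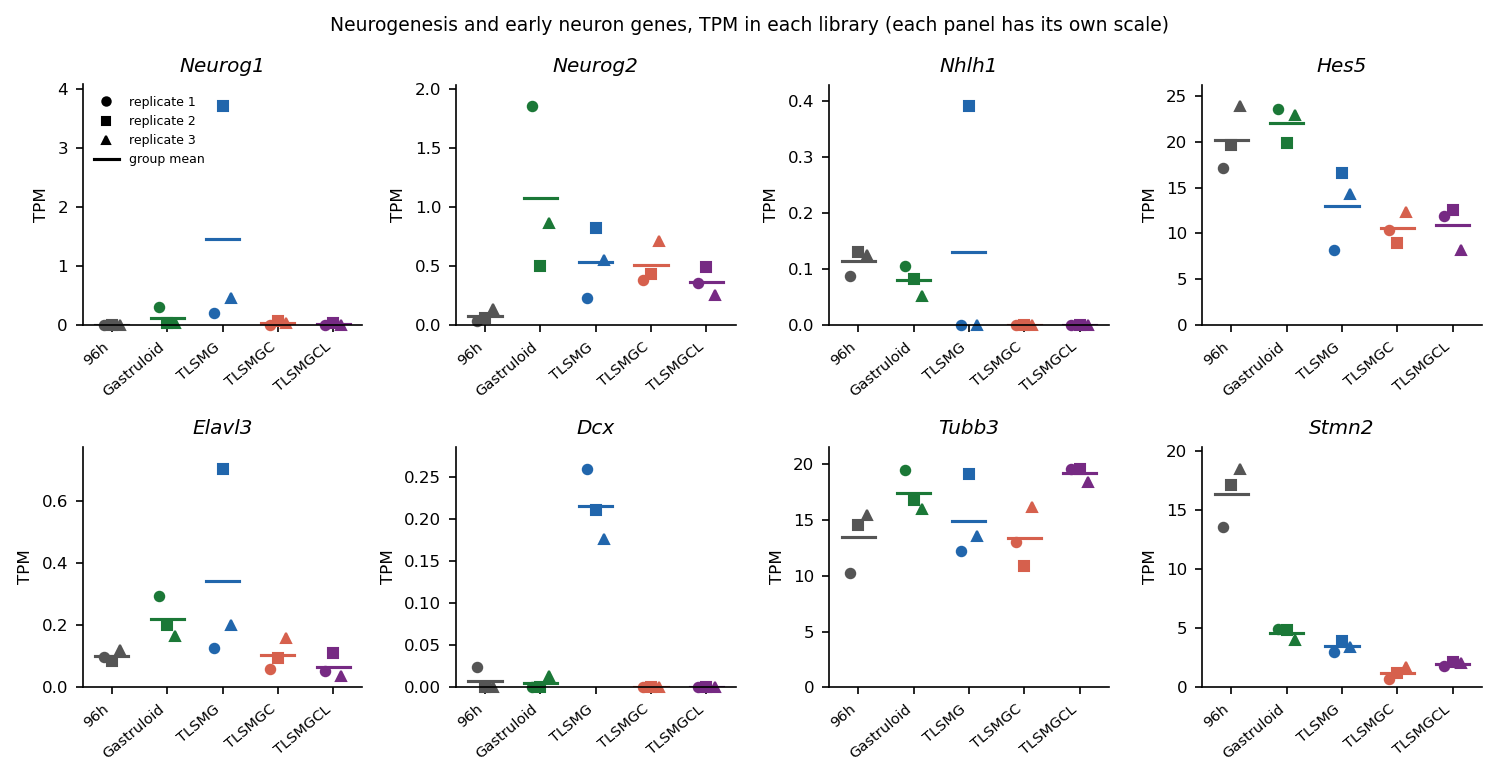
TPM (vertical axes, linear, 1 scale per panel) of the 8 members in each of the 15 libraries, by group; symbols are replicates and horizontal lines are group means. Stmn2 is highest in the 96h group, Hes5 is higher in 96h and Gastruloid than in the 3 Matrigel groups, Dcx stands above 0.1 TPM only in TLSMG, and 1 TLSMG library (replicate 2) carries the Neurog1, Nhlh1 and Elavl3 peaks.

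Sequencing depth, taken from the ratio of coverage to FPKM of single-transcript genes, ranged from 3.12 to 6.84 aligned gigabases per library, and 13688 to 14494 genes reached 1 TPM. The neural progenitor markers Sox1, Sox2, Sox3, Pax6 and Irx3 summed to 355 to 491 TPM in Gastruloid and 191 to 285 TPM in TLSMG. The other groups lay far below, with sums of 47.3 to 63.8 TPM (96h), 43.8 to 58.9 TPM (TLSMGC) and 60.4 to 72.0 TPM (TLSMGCL). Of 10 markers of neural crest and sensory neurons 4 were tested, and 3 of these rose in TLSMG against 96h, where 33.5% of all genes rose. The 10 summed to 46.7 to 57.7 TPM at 96h, 145 to 150 TPM in TLSMG and at most 104 TPM elsewhere, with the defining crest gene Sox10 at or below 0.409 TPM in every library. Their part in the results was not tested. The series' title names structures with somites and a neural tube. Since 5 of the 8 members averaged under 1 TPM, the name early neuron genes describes the genes and not the make-up of these libraries. The comparisons share groups: 96h is the reference of 4 of them and TLSMG of 2, so their values are given side by side only. Where groups are said to be separated or not to overlap, the share of all genes that do so is not given here. Such statements describe the values of the member only.

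Neurog1, a proneural factor of dorsal spinal and sensory lineages, was close to absent at 96h and had its highest levels in TLSMG, most of it from 1 library. The gene (ENSMUSG00000048904.5) lies on the minus strand of chromosome 13, from 56250478 to 56252163 on mm10. Its level was 0, 0.00312 and 0 TPM in the 3 libraries of 96h. It was 0.310, 0.0405 and 0.0383 TPM in Gastruloid and 0.200, 3.71 and 0.469 TPM in TLSMG. TLSMG replicate 2 stood far above all other libraries, the next highest being TLSMG replicate 3. TLSMG replicate 1 lay within the Gastruloid range.

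In TLSMGC the level was 0, 0.0770 and 0.0419 TPM and in TLSMGCL 0, 0.0405 and 0 TPM, so the 2 groups given CHIR99021 in Matrigel lay below all TLSMG libraries. The reads behind these values can be recovered from coverage, since Neurog1 has 1 annotated transcript. They numbered 0 at 96h, 16 in Gastruloid, 184 in TLSMG, 6 in TLSMGC and 2 in TLSMGCL, summed over each group. Of the 184, 143 came from TLSMG replicate 2. A single read pair was worth 0.0291 to 0.0591 TPM, so every Neurog1 value below about 0.1 TPM stands for a few reads.

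In the fit without a minimum level, Neurog1 did not pass the threshold in any comparison. The difference of TLSMG from 96h was 1.02 ± 0.37 (SE) with an adjusted p of 0.0633 (limma), and that of TLSMG from Gastruloid was 0.85 ± 0.37 with an adjusted p of 0.145. When TLSMG replicate 2 was left out of that fit, a choice made after seeing the data, the spread shrank and the difference from 96h became 0.41 ± 0.10 with an adjusted p of 0.0144, so that the call depended on 1 library. The corresponding differences of TLSMGC and TLSMGCL from TLSMG were −0.35 and −0.39, with adjusted p of 0.0355 and 0.0207. In that reduced fit, the shares of all genes that passed in these 3 comparisons were 21.9%, 16.8% and 18.7%.

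Neurog2, a proneural factor that acts broadly in the spinal cord, rose from 96h to Gastruloid and showed no overlap between 96h and any group at 120 h. The gene (ENSMUSG00000027967.8) lies on the plus strand of chromosome 3, from 127633135 to 127635631. Its level was 0.0320, 0.0646 and 0.138 TPM at 96h and 1.85, 0.503 and 0.867 TPM in Gastruloid. It was 0.226, 0.823 and 0.550 TPM in TLSMG, 0.380, 0.435 and 0.714 TPM in TLSMGC, and 0.356, 0.494 and 0.258 TPM in TLSMGCL. Among the groups at 120 h, Gastruloid lay just above TLSMGCL, the other pairs overlapped, and Gastruloid replicate 1 was the highest library.

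The reads behind Neurog2 totalled 14 at 96h, 187 in Gastruloid, 106 in TLSMG, 92 in TLSMGC and 68 in TLSMGCL. Without a minimum level, the difference of Gastruloid from 96h was 0.89 ± 0.20 with an adjusted p of 0.00711 (limma). In that fit 22.1% of all genes passed in this comparison, so Neurog2 was 1 of many. Without Gastruloid replicate 1 the difference was 0.64 ± 0.16 with an adjusted p of 0.0178, where 18.3% of all genes passed. The differences of TLSMG, TLSMGC and TLSMGCL from 96h were 0.49, 0.48 and 0.34, with adjusted p of 0.106, 0.127 and 0.306. Thus the separation in range from 96h was not matched by a call in the Matrigel groups. Without a minimum level, the test over all 5 groups gave an adjusted p of 0.0363, where 40.2% of all genes passed, and that over the 4 groups at 120 h gave 0.199.

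Nhlh1, a factor switched on briefly in newly committed neurons, was present at a trace level at 96h and in Gastruloid and was not detected in either group given CHIR99021 in Matrigel. The gene (ENSMUSG00000051251.3) lies on the minus strand of chromosome 1, from 172052292 to 172057573. Its level was 0.0877, 0.131 and 0.125 TPM at 96h, 0.106, 0.0828 and 0.0525 TPM in Gastruloid, and 0, 0.391 and 0 TPM in TLSMG. All 6 libraries of TLSMGC and TLSMGCL were listed at 0. Only TLSMG replicate 2 carried reads in its group, 22 of them, which was also the highest count of any library. The group totals were 23 reads at 96h and 16 in Gastruloid.

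A count of 0 still allows up to 3 read pairs, which for Nhlh1 corresponds to 0.0597 to 0.121 TPM depending on the library, so the levels at 96h lie close to this limit. Such limits cover counting error only. No comparison passed for Nhlh1 in the fit without a minimum level, the adjusted p of TLSMGC and TLSMGCL against 96h being 0.314 and 0.316 (limma).

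**Figure D2:**
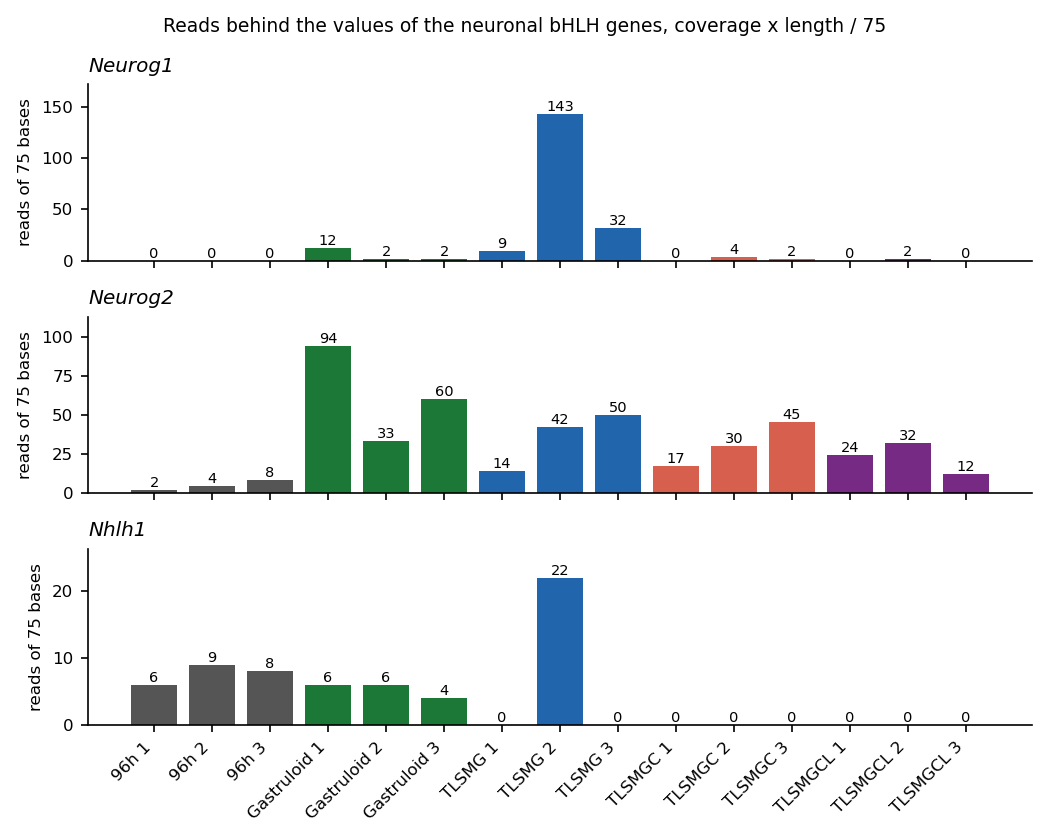
Reads of 75 bases behind each value of Neurog1, Neurog2 and Nhlh1 (vertical axes, linear, from 0), in the 15 libraries. TLSMG replicate 2 holds 143 of the 184 Neurog1 reads of its group and all 22 of its Nhlh1 reads, while Neurog2 reads are spread over all libraries at 120 h, from 12 to 94.

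Hes5, the Notch effector, differed by less than its error between 96h and Gastruloid, and was lower in all 3 Matrigel groups. The gene (ENSMUSG00000048001.7) lies on the plus strand of chromosome 4, from 154960923 to 154962371. Its level was 17.2, 19.7 and 23.9 TPM at 96h and 23.5, 19.8 and 22.9 TPM in Gastruloid. It was 8.22, 16.6 and 14.3 TPM in TLSMG, 10.4, 9.00 and 12.3 TPM in TLSMGC, and 11.9, 12.5 and 8.21 TPM in TLSMGCL. Every library of the Matrigel groups lay below every library of 96h and Gastruloid.

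The group means ± SD (n = 3 each) were 20.2 ± 3.39 at 96h, 22.1 ± 1.97 in Gastruloid, 13.0 ± 4.31 in TLSMG, 10.6 ± 1.66 in TLSMGC and 10.9 ± 2.34 TPM in TLSMGCL. The difference of Gastruloid from 96h was 0.13, with a 95% confidence interval of −0.34 to 0.60 and an adjusted p of 0.663 (limma). Hes5 fell in TLSMG against Gastruloid, by 0.77 ± 0.22 (SE) on the log2 scale, with an adjusted p of 0.0133, where 39.3% of all genes passed. Against 96h it fell by 0.64 in TLSMG, by 0.87 in TLSMGC and by 0.84 in TLSMGCL, with adjusted p of 0.0276, 0.00561 and 0.00713.

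The lower level in TLSMG rested partly on replicate 1, its lowest library. Without it the difference from 96h was −0.36 with an adjusted p of 0.128, and that from Gastruloid was −0.49 with an adjusted p of 0.0516. Leaving out 96h replicate 2 or replicate 3 also ended the call of TLSMG against 96h, with adjusted p of 0.0568 and 0.106, as did the fit without a minimum level, with an adjusted p of 0.0605. The call of TLSMG against Gastruloid held in the fit without a minimum level, with an adjusted p of 0.0357 (limma). When Gastruloid replicate 1 was also left out, a choice made after seeing the data, the difference was −0.72. Its adjusted p was then 0.110, and the call was lost. The falls in TLSMGC and TLSMGCL against 96h passed in all 15 fits that left out 1 library. Within Matrigel the Hes5 differences were −0.24 (TLSMGC against TLSMG), −0.21 (TLSMGCL against TLSMG) and 0.03 (TLSMGCL against TLSMGC), and none passed. The last of these had a 95% confidence interval of −0.44 to 0.50. Without TLSMG replicate 1, the first and second were −0.51 and −0.48 and passed, with adjusted p of 0.0419 and 0.0477.

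As a share of the summed TPM of the Hes genes, Hes5 was highest in Gastruloid, at 12.5% to 14.6%. The share was 8.56% to 9.46% at 96h, and the Matrigel groups lay between 6.07% and 10.8%. The sum itself was 196 to 252 TPM at 96h and 157 to 181 TPM in Gastruloid. Within it, Hes7 was 111 to 150 and 3.43 to 8.91 TPM, while Hes1, Hes3 and Hes6 were higher in Gastruloid. The higher share in Gastruloid is thus not a higher Hes5 level. An antisense gene, Gm20421, overlaps Hes5. It was at or below 1.24 TPM in every library, and whether the authors' quantification used strand is not given in the sources used here, so reads of this pair may not be fully separated.

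Between 96h and Gastruloid the Notch ligands Dll1 and Dll3 fell, while the Hes5 difference did not pass. Dll1, a ligand of both neurogenesis and the presomitic mesoderm, was 484 ± 24.2 TPM at 96h and 38.7 ± 5.88 TPM in Gastruloid, a difference of −3.62 (adjusted p of 7.07e-11, limma). Dll3, which acts in the same tissues, was 242 ± 14.9 and 24.1 ± 5.66 TPM. Hes5 lay at 20.2 and 22.1 TPM in the same groups. The 3 other ligands, named after their values were seen, were lower in level and differed less: Jag2 was 1.96 to 2.53 TPM at 96h and 2.34 to 2.87 TPM in Gastruloid, Dll4 at most 0.135 and 0.487 TPM, and Jag1 14.3 to 20.9 and 9.61 to 10.8 TPM. In TLSMG, Dll1 was 42.1, 43.5 and 46.8 TPM and Dll3 was 21.8 ± 3.72 TPM. Both rose in TLSMGC, by 1.02 and 1.11 on the log2 scale, to 90.7 ± 10.8 and 48.1 ± 8.10 TPM. The 8 presomitic and tailbud markers, a list that holds both ligands, summed to 1383 to 1887 TPM at 96h. Their sums at 120 h were lower in the groups given no further CHIR99021, 141 to 236 TPM (Gastruloid) and 200 to 252 TPM (TLSMG), and reached 418 to 537 TPM (TLSMGC) and 426 to 490 TPM (TLSMGCL). Their part in the ligand difference was not tested. Hes3, another Hes gene of neural progenitors, was 30.1 ± 7.48 TPM in TLSMG and 1.04 ± 0.538 TPM in TLSMGC, while the Hes5 difference between these groups did not pass.

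Elavl3, the neuronal RNA-binding protein HuC, was under 1 TPM in every library, and its highest value again came from TLSMG replicate 2. The gene (ENSMUSG00000003410.8) lies on the minus strand of chromosome 9, from 22015005 to 22052023. Its level was 0.0982, 0.0856 and 0.121 TPM at 96h and 0.295, 0.201 and 0.166 TPM in Gastruloid. It was 0.127, 0.705 and 0.200 TPM in TLSMG, 0.0596, 0.0952 and 0.159 TPM in TLSMGC, and 0.0525, 0.110 and 0.0384 TPM in TLSMGCL. All Gastruloid libraries and all TLSMG libraries lay above all 96h libraries. For TLSMG the margin was slight, 0.127 TPM in replicate 1 against 0.121 TPM in 96h replicate 3. These values stood for 18 and 16 reads if all came from the longest coding transcript, and for 1 read each if from the shortest. The separation of TLSMG from 96h is therefore not resolved.

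Elavl3 has 3 coding transcripts of very different length, and the reads behind TLSMG replicate 2 were 6 if all came from the shortest and 81 if all came from the longest. No comparison passed without a minimum level, the nearest being TLSMGCL against TLSMG with a difference of −0.31 ± 0.12 and an adjusted p of 0.0816 (limma). Elavl3 contributed at most 0.559% of the summed TPM of the Elavl genes, a sum that includes the broadly expressed Elavl1. A same-strand gene model, Gm49318, overlaps Elavl3 and was listed at 0 in every library.

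Dcx, the microtubule-associated protein of migrating young neurons, was above a trace in TLSMG only, in all 3 of its libraries, and at a low level there. The gene (ENSMUSG00000031285.14) lies on the minus strand of chromosome X, from 143855842 to 143933311. Its level was 0.260, 0.211 and 0.176 TPM in TLSMG. It was 0.0239, 0 and 0 TPM at 96h and 0, 0 and 0.0142 TPM in Gastruloid, and it was listed at 0 in all 6 libraries of TLSMGC and TLSMGCL. The lowest TLSMG library stood above the highest library of any other group.

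The reads behind the TLSMG values were 6 to 10 per library if all came from the shortest coding transcript, and 44 to 65 if all came from the longest. Without a minimum level, the difference of TLSMG from 96h was 0.27 ± 0.02 with an adjusted p of 2.56e-06 (limma), where 25.7% of all genes passed, and that from Gastruloid was 0.27 with an adjusted p of 3.41e-05, where 18.1% passed. TLSMGC and TLSMGCL fell below TLSMG by 0.28 each, with adjusted p of 3.34e-06 and 2.80e-06, where 20.8% and 22.9% passed. Fitted differences so close to 0 TPM depend on the added 1 TPM. The SE comes from a spread shared by all 5 groups, and the SD of Dcx was 0 TPM in TLSMGC and TLSMGCL, against 0.0422 TPM in TLSMG. These adjusted p therefore do not measure the spread between TLSMG libraries alone and may overstate the evidence. Without TLSMG replicate 2, all 4 differences still passed, the share for TLSMG against Gastruloid then being 14.1% of all genes.

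Dcx did not follow the other neuronal members inside TLSMG, since its highest library was replicate 1 and not replicate 2. The genes most like it over the 15 libraries were Fmo1 and Robo4, a receptor of endothelial cells, with Pearson r of 0.978 and 0.966 on log2(TPM + 1), values that rest on the same 3 libraries being high. The 5 endothelial markers Kdr, Cdh5, Etv2, Pecam1 and Cldn5 summed to 200 to 244 TPM in TLSMG. No other group exceeded 57.9 TPM, the lowest sums being 8.29 TPM (96h), 25.3 TPM (Gastruloid), 19.3 TPM (TLSMGC) and 9.34 TPM (TLSMGCL), and all 5 were highest in TLSMG replicate 1 among the TLSMG libraries. Their part in the Dcx level was not tested.

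Tubb3, the beta-tubulin used as a neuron marker, was at 10.3 to 19.6 TPM in every library, with its highest mean in TLSMGCL. The gene (ENSMUSG00000062380.4) lies on the plus strand of chromosome 8, from 123411424 to 123422015. Its level was 10.3, 14.6 and 15.5 TPM at 96h, 19.5, 16.8 and 16.0 TPM in Gastruloid, and 12.2, 19.1 and 13.6 TPM in TLSMG. It was 13.1, 10.9 and 16.1 TPM in TLSMGC and 19.6, 19.6 and 18.4 TPM in TLSMGCL. The TLSMGCL libraries lay above all libraries of 96h and TLSMGC and overlapped those of Gastruloid and TLSMG.

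The means ± SD were 13.5 ± 2.80 at 96h, 17.5 ± 1.85 in Gastruloid, 15.0 ± 3.66 in TLSMG, 13.4 ± 2.63 in TLSMGC and 19.2 ± 0.674 TPM in TLSMGCL (n = 3 each). Tubb3 rose in TLSMGCL against 96h by 0.50 ± 0.18 (SE) with an adjusted p of 0.0364 (limma), where 39.5% of all genes passed. This call did not hold without 96h replicate 1, where the difference was 0.33 with an adjusted p of 0.165, nor without any 1 of the 3 TLSMGCL libraries, where the adjusted p were 0.0817, 0.0783 and 0.0626. It was also lost in the fit without a minimum level, with an adjusted p of 0.0764.

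The addition of LDN gave a difference of 0.51 ± 0.18 from TLSMGC, of the same size, with an unadjusted p of 0.0126 and an adjusted p of 0.221, where 1.18% of all genes passed. The test over all 5 groups and that over the 4 groups at 120 h did not pass, with adjusted p of 0.0581 and 0.0776, but did so after rescaling by the median of gene ratios (0.0307 and 0.0316), from FPKM (0.0313 and 0.0397) and without TLSMG replicate 2 (0.0201 and 0.0246). TLSMGCL against TLSMG, a difference of 0.36 with an adjusted p of 0.109, passed under the same 3 changes, with differences of 0.56, 0.46 and 0.54 and adjusted p of 0.0237, 0.0457 and 0.0256. Tubb3 supplied 0.295% to 0.554% of the summed TPM of the beta-tubulin genes, so the level is that of a minor isotype in every library. A same-strand gene model, Gm20388, contains Tubb3 and was listed at 0 in every library.

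Stmn2, which encodes the microtubule-destabilizing protein SCG10 of growing axons, showed the largest differences among the tested members, and it was highest at 96h, where the proneural genes were lowest. The gene (ENSMUSG00000027500.10) lies on the plus strand of chromosome 3, from 8509360 to 8561606. Its level was 13.6, 17.2 and 18.5 TPM at 96h and 4.96, 4.89 and 4.01 TPM in Gastruloid. It was 3.03, 3.97 and 3.47 TPM in TLSMG, 0.740, 1.26 and 1.75 TPM in TLSMGC, and 1.79, 2.14 and 2.10 TPM in TLSMGCL. The ranges of the groups did not overlap, in the order 96h, Gastruloid, TLSMG, TLSMGCL and TLSMGC. The gap between Gastruloid and TLSMG was narrow, from 4.01 to 3.97 TPM, as was that between TLSMGCL and TLSMGC, from 1.79 to 1.75 TPM. With adjusted p of 0.127 and 0.246 (limma), neither of these differences passed, so the order within these pairs is not established.

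The means ± SD were 16.4 ± 2.56, 4.62 ± 0.534, 3.49 ± 0.471, 2.01 ± 0.187 and 1.25 ± 0.507 TPM in that order (n = 3 each). Stmn2 fell against 96h in all 4 later groups, with differences of −1.62 in Gastruloid, −1.95 in TLSMG, −2.97 in TLSMGC and −2.52 in TLSMGCL, each ± 0.16 (SE). The adjusted p were 3.33e-06, 4.96e-07, 1.33e-08 and 5.19e-08 (limma), in comparisons where 41.2%, 46%, 40.7% and 39.5% of all genes passed. These 4 calls passed in every fit that left out 1 library.

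Within Matrigel, Stmn2 fell with CHIR99021: the difference of TLSMGC from TLSMG was −1.02, with an adjusted p of 0.000265, where 40.9% of all genes passed. That of TLSMGCL from TLSMG was −0.57, with an adjusted p of 0.0111, where 44.9% passed. When libraries were rescaled by the median of gene ratios, the latter was −0.41 with an adjusted p of 0.0660, and the call was lost. TLSMG against Gastruloid gave −0.33 with an adjusted p of 0.127. This difference passed after that rescaling, at −0.46 with an adjusted p of 0.0457, and from FPKM, at −0.38 with an adjusted p of 0.0345. TLSMGCL exceeded TLSMGC by 0.44, with an unadjusted p of 0.0166 and an adjusted p of 0.246.

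The genes most like Stmn2 were Wnt8a, a ligand of the early posterior embryo, and Ifitm2, with Pearson r of 0.984 and 0.979 over the 15 libraries. Wnt8a averaged 37.8 TPM at 96h, 4.04 TPM in Gastruloid and 0.874 to 2.77 TPM in the Matrigel groups. The presomitic and tailbud marker sums given above were also highest at 96h but did not share the order of Stmn2 at 120 h, being higher in TLSMGC and TLSMGCL than in Gastruloid and TLSMG. The pluripotency factor Pou5f1, chosen after its values were seen, had the same order of group means as Stmn2, with means of 116, 57.8, 26.5, 13.9 and 10.1 TPM from 96h to TLSMGC, and its relation to Stmn2 was not tested. Stmn2 made up 3.31% to 4.65% of the summed stathmin TPM at 96h and at most 0.757% in any later library, most of the sum being Stmn1, a stathmin of dividing cells, at 373 to 719 TPM.

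**Figure D3:**
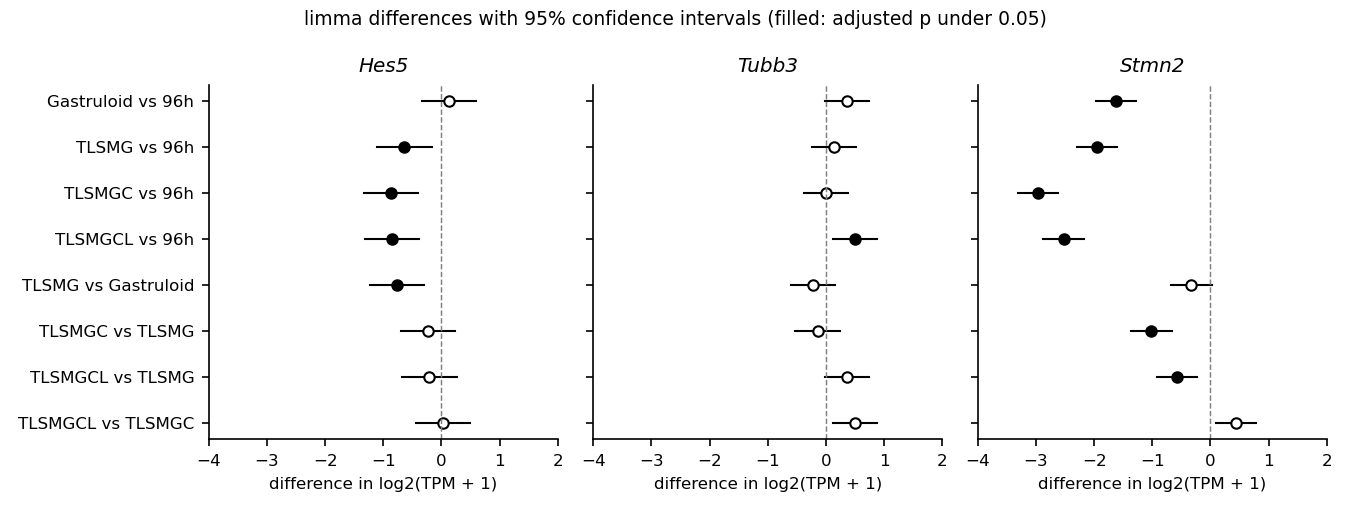
Differences in log2(TPM + 1) (horizontal axis) of Hes5, Tubb3 and Stmn2 in the 8 comparisons (rows), as points with 95% confidence intervals; filled points passed at an adjusted p under 0.05 (limma, 3 libraries per group). Stmn2 falls by 1.62 to 2.97 in all 4 comparisons with 96h, Hes5 falls in the 3 Matrigel groups against 96h and in TLSMG against Gastruloid, and Tubb3 passes only in TLSMGCL against 96h.

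The counts of tested members that passed were 1 of 3 for Gastruloid against 96h, 2 for TLSMG against 96h, 2 for TLSMGC against 96h and 3 for TLSMGCL against 96h. They were 1 each for TLSMG against Gastruloid, TLSMGC against TLSMG and TLSMGCL against TLSMG, and 0 for TLSMGCL against TLSMGC. The shares of all genes that passed were, in this order, 41.2%, 46%, 40.7%, 39.5%, 39.3%, 40.9%, 44.9% and 1.18%, so that 1 or 2 of 3 members is near the background. In that last comparison the unadjusted p of Tubb3 and Stmn2 were 0.0126 and 0.0166 (limma), and neither passed after adjustment. The share of 1.18% is for adjusted p and is no background for these unadjusted values. Over all 5 groups 2 of 3 passed, where 73.5% of all genes passed, and over the 4 groups at 120 h 2 of 3, where 62.7% passed. In TPM, the median difference of all genes tested was 0.14 for TLSMG against 96h, 0.13 for TLSMG against Gastruloid, −0.16 for TLSMGC against TLSMG and −0.18 for TLSMGCL against TLSMG. Relative to these medians, the falls of Hes5 and Stmn2 in TLSMG against 96h and Gastruloid are larger by that amount, and the falls of Stmn2 from TLSMG to TLSMGC and TLSMGCL are smaller.

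Wider lists of the same pathway placed the members in context. Of 22 neural progenitor genes, 17 were tested. From 96h to Gastruloid, 12 rose and 1 fell, with a median difference of 1.49 against 0.00 over all genes tested, where 20.8% of genes rose and 20.5% fell. Sox21 and Sox1, factors of neural progenitors, rose by 4.10 and 3.74, to 30.1 ± 6.97 and 26.7 ± 5.69 TPM, while the radial glial gene Fabp7 fell by 2.50. From 96h to TLSMG, 13 rose and 1 fell, where 33.5% of all genes rose and 12.5% fell. From TLSMG to TLSMGC, 1 rose and 11 fell, with a median of −1.29, and from TLSMG to TLSMGCL 1 rose and 12 fell. Over all genes, 10.4% rose and 30.5% fell in the former comparison, and 9.31% rose and 35.6% fell in the latter. The gene that rose both times was the dorsal neural tube and somite factor Zic1, from 5.47 ± 4.30 to 84.2 ± 10.1 and 106 ± 20.2 TPM. The progenitor factor Pax6 fell by 3.24 and 3.12.

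Of 33 further Notch and proneural genes, 23 were tested. From 96h to Gastruloid 8 rose and 9 fell, where 20.8% of all genes rose and 20.5% fell. Ebf2 and Ebf3, which act downstream of proneural factors but also in mesoderm, rose by 2.53 and 1.60. From TLSMG to TLSMGC, 4 rose and 10 fell, where 10.4% of all genes rose and 30.5% fell. Ebf2 fell by 3.74, from 12.8 ± 1.24 to 0.0330 ± 0.0572 TPM. Ebf2 thus had its highest level in TLSMG, as did Neurog1 and Dcx, but was as high in replicates 1 and 3 (12.8 and 14.0 TPM) as in replicate 2 (11.6 TPM). Between TLSMGC and TLSMGCL, Notch1 rose by 0.67 and the ligand Jag1 fell by 0.66.

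Of 44 further early neuron genes, 27 were tested, and 13 stayed under 1 TPM in every library. From 96h to Gastruloid 12 rose and 9 fell, and from 96h to TLSMG also 12 and 9. Over all genes tested, 20.8% rose and 20.5% fell in the former comparison, and 33.5% rose and 12.5% fell in the latter. Nefl, a neurofilament gene, rose by 1.75 and 2.11, from 8.74 ± 1.17 to 31.7 ± 3.31 and 40.8 ± 1.34 TPM, whereas Lhx1, a factor of interneurons and also of early mesoderm, fell by 3.70 and 2.48. From TLSMG to TLSMGC 3 rose and 19 fell, with a median of −0.53 against −0.16 over all genes tested, and from TLSMG to TLSMGCL 1 rose and 15 fell. Of all genes, 10.4% rose and 30.5% fell in the former, and 9.31% rose and 35.6% fell in the latter. Nefl fell by 1.66 and 1.69 and Crmp1, a mediator of axon guidance, by 1.06 and 1.03. Stmn2 moved in the same direction as this list within Matrigel and against Nefl from 96h to Gastruloid.

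Within a group, the same library was often the highest for most members. In TLSMG, replicate 2 was the highest library for 7 of 8 members, all but Dcx, and 6 of these were ordered replicate 1, 3 and 2 from low to high. Over all genes tested, replicate 2 was the highest TLSMG library for 30.8%. The 5 neural progenitor markers were ordered in the same way, with sums of 191 TPM in replicate 1 and 285 TPM in replicate 2, and 7 of 8 presomitic and tailbud markers were lowest in replicate 2.

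In Gastruloid, replicate 1 was the highest library for 7 of 8 members, all but Dcx, against 26.6% of all genes tested. It was highest for 4 of 5 neural progenitor markers and lowest for 8 of 8 presomitic and tailbud markers. The presomitic and tailbud markers did not keep this opposite order in the other groups. In TLSMGCL, replicate 2 was highest for all 6 members above 0, against 24.7% of all genes tested, for 2 of 5 neural progenitor markers and for 7 of 8 presomitic and tailbud markers. In TLSMGC, replicate 3 was highest for 5 of 6 members above 0, against 32.4% of all genes tested. It was highest for 2 of 5 neural progenitor markers and 8 of 8 presomitic and tailbud markers. At 96h, replicate 3 was highest for 5 of 8 members, against 36.2% of all genes tested. That library was also highest for 4 of 5 neural progenitor markers and 7 of 8 presomitic and tailbud markers. Members of 1 library are not independent of each other, and the part of the progenitor and presomitic cells in these orders was not tested.

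**Figure D4:**
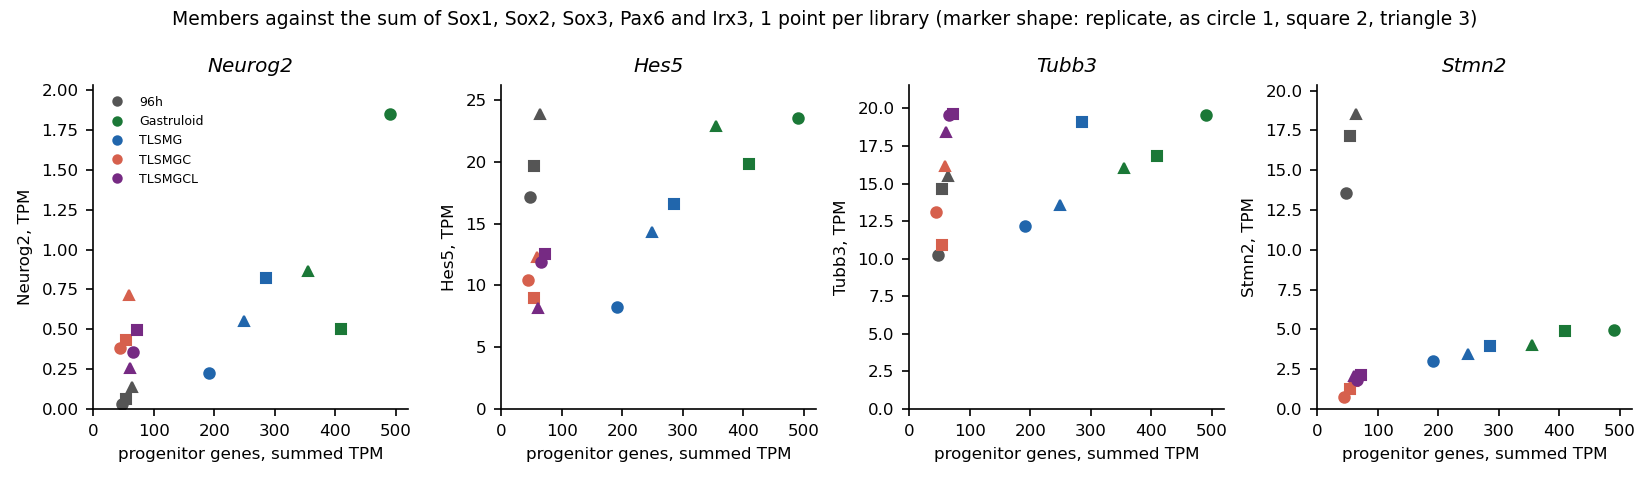
TPM of Neurog2, Hes5, Tubb3 and Stmn2 (vertical axes) against the summed TPM of Sox1, Sox2, Sox3, Pax6 and Irx3 (horizontal axis), 1 point per library, coloured by group. In TLSMG the 4 genes rise with the sum from 191 to 285 TPM, while the 96h libraries, at 47.3 to 63.8 TPM, hold the highest Stmn2 levels. Their Hes5 levels, 17.2, 19.7 and 23.9 TPM, lie just below or above the Gastruloid range of 19.8 to 23.5 TPM.

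Between groups, the members did not share 1 order. Neurog2 was highest in Gastruloid, where the progenitor sum was also highest. Neurog1, Elavl3, Dcx and Nhlh1 had their highest mean in TLSMG, Tubb3 in TLSMGCL and Stmn2 at 96h. For Nhlh1 and Elavl3 this place rested on TLSMG replicate 2: the other 2 TLSMG libraries were listed at 0 for Nhlh1, and for Elavl3, at 0.127 and 0.200 TPM, they lay below the Gastruloid mean of 0.221 TPM. Hes5 was at 17.2 to 23.9 TPM at 96h with a progenitor sum of at most 63.8 TPM, and at 8.21 to 12.5 TPM in TLSMGC and TLSMGCL with a sum of at most 72.0 TPM.

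The genes most like the other members were Pcdhga1 and Zbtb43 for Neurog1 (Pearson r of 0.916 and 0.824), Prr7 and Cdk2ap2 for Neurog2 (0.918 and 0.903), Pold1 and B9d1 for Hes5 (0.912 and 0.909), and Krtcap2 and Syngr1 for Tubb3 (0.894 and 0.842). For Elavl3 they were Nedd4l and Lyrm9 (0.877 and 0.874), and for Nhlh1 Pcdhgb5 and Mpzl1 (0.786 and 0.777). Each r is over 15 libraries on log2(TPM + 1), describes these libraries, and was the highest of many.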

How the data were processed

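Bulk RNA-seq tables, 1 per library, were used as deposited. Per the submitters' processing notes, reads were trimmed with cutadapt 2.4, aligned with STAR 2.7.3a and quantified with StringTie 2.0 on mm10, with the roles of the tools inferred from their usual use. The annotation is not given in the sources used here, and 54409 of 54446 gene IDs matched GENCODE M21 without their version, from which positions and transcript lengths were taken. Per the labels' protocols, libraries were stranded, with paired reads of 75 bases. The unit of the deposited values is TPM, per the file headers, and each library summed to 1000000. The deposited FPKM values and coverage, per the file headers, were used to recover depth, and FPKM as an alternative scale. Rows of 1 gene ID were summed.

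Reads were computed as coverage × transcript length / 75 for members with 1 transcript; 26 of 32 values above 0 lay within 0.1 of a whole number. limma 3.58.1 (R 4.3.3) was fitted to log2(TPM + 1) of all 15 libraries and tested on simulated data; p-values are two-sided. The labels call the replicates biological without saying what separates them, so p-values measure the spread between these pools. Replicate numbers did not pair libraries: deviations of same-numbered libraries correlated at −0.18 to 0.10.

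The members and lists were chosen with earlier results of these data known. All members are named. From each list the text names at most 2 passing genes per direction with the largest difference, among genes of at least 5 TPM in the higher group, and markers; gene families and the dorsal genes were chosen after their values were seen.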

Additional observations from a re-analysis of the deposited data

How the results depend on the processing

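Of 255 recomputed member counts, 234 stayed within 1.5 times the reported count. The reported counts were at most 3, and a change between 2 and 3 stays within that bound. The loss of Tubb3 in TLSMGCL against 96h therefore does not show in the figure of 234. Of 688 recomputed member differences, 650 kept their direction and side of the threshold. Without a minimum level, all 8 members were tested, and 2 passed in Gastruloid against 96h (Neurog2 added), where 22.1% of all genes passed. In TLSMG against Gastruloid, TLSMGC against TLSMG and TLSMGCL against TLSMG 2 each passed (Dcx added), where 18.1%, 20.8% and 22.9% of all genes passed. Over the 5 groups 4 passed, where 40.2% of all genes passed. Hes5 in TLSMG against 96h and Tubb3 in TLSMGCL against 96h no longer passed in that fit (adjusted p of 0.0605 and 0.0764, limma). Without that minimum and without Gastruloid replicate 1, 2 of 8 passed in Gastruloid against 96h, where 18.3% of all genes passed. Without it and without TLSMG replicate 2, 5 of 8 passed in TLSMG against 96h and 3 in TLSMG against Gastruloid, where 21.9% and 14.1% of all genes passed. Nhlh1 was among both, with its 2 other TLSMG libraries at 0, so that this is no evidence of a difference. In that setting 3 passed in TLSMGC against TLSMG and 2 in TLSMGCL against TLSMG, where 16.8% and 18.7% of all genes passed. Both settings that left out a library were chosen after seeing the data. The settings that follow kept a minimum level, and their shares of all genes are not given here. A fit of the compared groups only left 1 in TLSMG against 96h. Rescaling by the median of gene ratios gave 2 in TLSMG against Gastruloid, and FPKM gave 2 there and 2 in TLSMGCL against TLSMG. Leaving out 1 library gave 1 to 2 in TLSMG against 96h, 0 to 1 in TLSMG against Gastruloid, 1 to 2 in TLSMGC against TLSMG and 1 to 2 in TLSMGCL against TLSMG. The cause was not tested. With the replicate block, the counts were unchanged in all 8 comparisons and both tests over groups, for example 3 in TLSMGCL against 96h.

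Only differences that had not passed changed sign. Tubb3 in TLSMG against 96h became −0.028 after rescaling, −0.040 without the minimum and TLSMG replicate 2, and ranged from −0.040 to 0.26 with 1 library left out. Tubb3 in TLSMGC against 96h became 0.015 from FPKM and ranged from −0.17 to 0.12. Tubb3 in TLSMGC against TLSMG became 0.019 after rescaling and 0.035 without the minimum and TLSMG replicate 2, and ranged from −0.28 to 0.035. Hes5 in TLSMGCL against TLSMGC ranged from −0.076 to 0.20. Depth limits Neurog1, Neurog2, Nhlh1, Elavl3 and Dcx, whose values rest on few reads.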

Other observations

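Some genes of the dorsal neural tube, picked because of their values, were highest in the same TLSMG library that held most Neurog1 reads. Olig3, a factor of dorsal spinal progenitors, was 0.0977, 3.49 and 0.776 TPM in TLSMG replicates 1, 2 and 3, and at most 0.285 TPM in every library of the other groups. Tfap2b was 0.0491, 1.12 and 0.0416 TPM in the same order. Zic1 was 2.37, 10.4 and 3.65 TPM in that order. Other dorsal genes did not share this order or differed little: Pax3 was 28.3, 44.0 and 51.1 TPM, Pax7 2.34, 4.81 and 4.97 TPM, and Lmx1a 1.14, 1.36 and 1.12 TPM. The radial glial gene Fabp7 was 1.56, 12.0 and 2.41 TPM in TLSMG and 16.3 to 25.4 TPM at 96h. Zic1 was higher elsewhere at 120 h, at 73.3 to 120 TPM in TLSMGC and TLSMGCL, where Olig3 was at most 0.285 TPM and Neurog1 at most 0.0770 TPM.

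In Gastruloid, replicate 1 held the highest Neurog2 value, 1.85 TPM, and also stood apart in 2 factors of intermediate spinal progenitors. Dbx1 was 47.9, 5.51 and 4.95 TPM and Pax6 41.6, 14.8 and 14.1 TPM in replicates 1, 2 and 3. With 3 libraries per group, these are values of single pools of 6 structures.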
